A study of Xenopus tropicalis with 24 samples.

Results

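The genes described here are the ribosome biogenesis genes of Xenopus tropicalis, the proteins that make, cut, modify and package ribosomal RNA but are not part of the finished ribosome. They were chosen by symbol from a list of 54 names, of which 53 were found among the 26531 genes counted, and rrp1 was not found under that symbol. Ribosome production starts in the nucleolus, where RNA polymerase I copies the ribosomal DNA into a long precursor. The small subunit processome folds and cleaves the part of the precursor that becomes the small subunit. Small nucleolar ribonucleoproteins (snoRNPs) of the box C/D kind place ribose methyl groups, and those of the box H/ACA kind convert uridine to pseudouridine. Other factors assemble the large subunit or carry the small subunit out of the nucleus. Production of ribosomes is costly, is tied to cell growth, and is a known target of the transcription factor MYC.

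RNA was counted per gene in the intestine and the tail of tadpoles at stage 54, a premetamorphic stage at which the larval intestine has yet to be remodelled and the tail has yet to be resorbed. Wild-type (WT) tadpoles and tadpoles labelled TRDKO, which lack thyroid hormone receptor by the study's design text, were either left untreated (control) or kept in 5 nM T3, the active thyroid hormone, and all were held for 18 hours at 25 °C. These 8 groups had 3 libraries each, 24 in all, and the study asked how far the hormone acts with and without its receptors in each organ. The labels do not give the lesions of the knockout, nor do they say whether each replicate came from its own animal. The p-values therefore reflect the spread among the libraries alone, and that spread may be technical. The organs were sampled whole, so fewer cells of a type and less RNA per cell cannot be told apart.

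Libraries held 17577407 to 24699154 counts, and the ribosome biogenesis genes took 0.297% to 0.461% of them. Levels are given as CPM, counts scaled to a common library total by trimmed means over all 24 libraries. The T3 and genotype contrasts were scaled within each organ instead, so small fold changes can differ from the ratio of the printed CPM. For T3 in WT intestine the median log2 fold change of all genes was 0.011 within the organ and 0.051 with all 24 libraries in 1 fit. Replicates 1 and 3 of the tail WT control did not differ detectably beyond sampling noise and entered the tests as 1 sample, which leaves n = 2 in that group and n = 3 in the others. Replicate 3 of the intestine TRDKO T3 group stood apart, with a mean chi-square per gene of 22.8 and 27.6 against the other two, where every other pair of replicates reached at most 2.15. The counts of members called in each intestine contrast, and the named genes whose T3 call turns on it, are given with and without it. Counts by role, counts of other lists, calls shared by contrasts, and genotype and interaction calls of single genes are given with it only. Without it, for example, ncl and nop56 were called higher in TRDKO than in WT control intestine (log2 differences of 0.12 and 0.10). Transcripts of both receptors were counted in the libraries labelled TRDKO, with thrb at 26.1, 23.8 and 25.3 CPM in tail TRDKO control and thra at 8.26, 6.29 and 6.90, and because the lesions are not given these counts do not check the genotype. T3 raised thrb, itself a known T3 response gene, in every organ and genotype. Summed over 9 thyroid hormone response genes, thrb among them, the level in TRDKO went from 44.2 to 47.2 CPM in control to 138 to 215 with T3 in intestine. In TRDKO tail it went from 193 to 201 to 388 to 397 CPM, and in WT tail from 116 to 122 to 390 to 412. Not every gene of that list rose, since klf9 went from 15.7, 15.9 and 14.9 to 8.54, 8.71 and 7.57 CPM in WT tail. The tail libraries held the muscle markers (33534 to 35357 CPM summed over 20 genes in the lowest group) and the intestine libraries the enterocyte markers (22272 to 23796 over 15 genes in the lowest group).

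All 53 genes were counted in every library and passed the low-count filter in every fit. Per kilobase of exon, the level in tail WT control ran from 1.64 CPM per kb for utp20 to 664 for ddx21, an RNA helicase that acts in ribosomal DNA transcription and rRNA processing. The highest levels per kb after ddx21 were those of npm1 at 359, ncl at 189, nop56 at 125 and dkc1 at 67.7. The large scaffold proteins of the small subunit processome and the RNA polymerase I subunits lay at the other end, with polr1b at 3.93 and polr1a at 4.06 CPM per kb. In intestine WT control the order at the extremes was similar, from 0.879 for utp20 to 544 for ddx21. The map of all members by library shows each gene against its own mean within an organ.

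**Figure D1:**
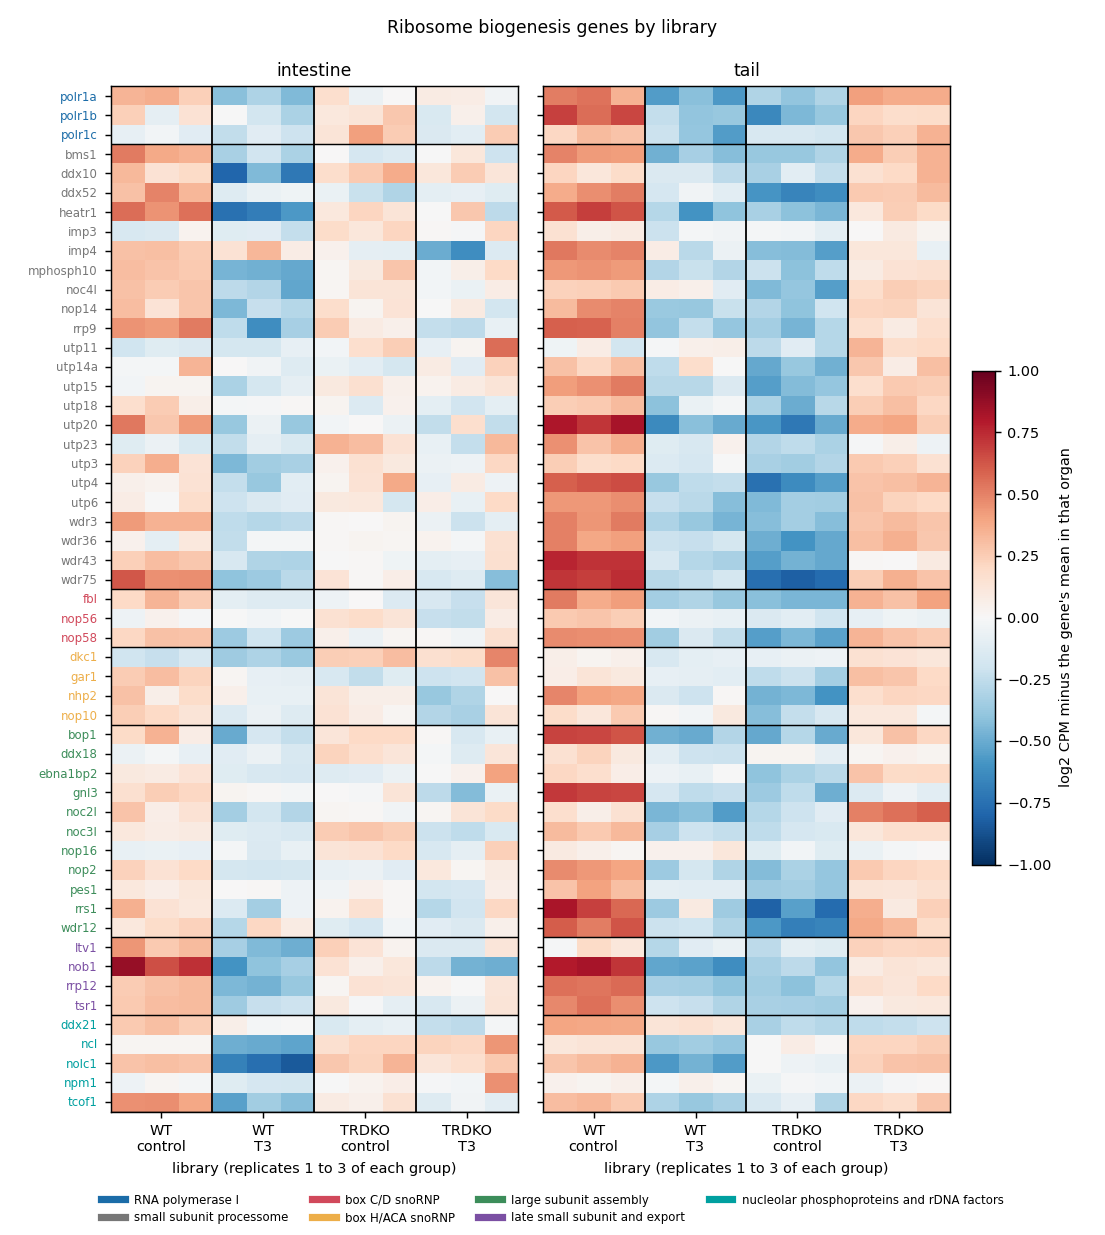
Level of the 53 ribosome biogenesis genes in each of the 24 libraries, as log2 CPM minus the mean of that gene over the 12 libraries of the organ (colour scale), with genes ordered and coloured by role. In the tail the WT control columns are mostly the highest and the TRDKO control columns mostly the lowest, with WT T3 also low and TRDKO T3 mostly between. In the intestine the WT T3 columns are the lowest for most genes.

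In the tail, T3 lowered ribosome biogenesis transcripts in WT and raised them in TRDKO. Summed over the 53 genes, the level was 4539, 4527 and 4512 CPM in the 3 WT control libraries, 3472, 3536 and 3479 in WT under T3, 3115, 3234 and 3158 in untreated TRDKO and 3675, 3707 and 3746 in treated TRDKO. No library of one group reached into the range of another. The sum was therefore highest in untreated WT tail and lowest in untreated TRDKO tail, and the T3 groups lay between them. The sum leans on its most abundant gene, ddx21, which alone stood at 1658, 1654 and 1646 CPM in WT control. In WT under T3 ddx21 stood at 1382, 1406 and 1368 CPM, and in untreated TRDKO at 1010.4, 1061 and 1038. With ddx21 left out, the summed levels of untreated TRDKO and of WT under T3 overlapped, so the place of untreated TRDKO below WT under T3 rests on that gene.

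With T3 in WT tail, 50 of 53 genes fell and 0 rose at an adjusted p under 0.05 (edgeR's quasi-likelihood test, adjusted over all genes by Benjamini-Hochberg), where 33.5% of all genes tested fell and 35.4% rose. The median log2 fold change of the 53 genes was -0.63, against 0.021 over all genes, and the 3 genes that were not called were nop16, npm1 and utp11. With T3 in TRDKO tail, 51 genes rose and 0 fell, against 26.7% and 26.2% of all genes, with a median of 0.54 against -0.0036. These contrasts share no library. The same 49 genes fell in WT and rose in TRDKO, ddx18 fell in WT and was not called in TRDKO, nop16 and utp11 rose in TRDKO and were not called in WT, and npm1 was called in neither. The share of all genes with such a pair of calls was not counted.

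Without hormone, 52 genes were lower in TRDKO tail than in WT tail and 0 higher, where 36.6% and 36.4% of all genes were called lower and higher. The median was -0.72, and utp11 was the gene not called. Under T3 the order turned, and 47 genes were higher and 2 lower in TRDKO than in WT, against 34.1% and 31.4% of all genes, with a median of 0.43. The genotype by T3 interaction, the T3 effect in TRDKO minus that in WT, was positive and called in 51 genes and negative in 0, where 32.2% of all genes were called positive and 33.4% negative. Its median was 1.16 against -0.034 over all genes. These contrasts reuse the libraries of the T3 contrasts, so their counts are not further evidence of the same pattern. The biological coefficient of variation was 1.68% in the tail fit and 6.28% in the intestine fit, so smaller differences could be called in tail.

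**Figure D2:**
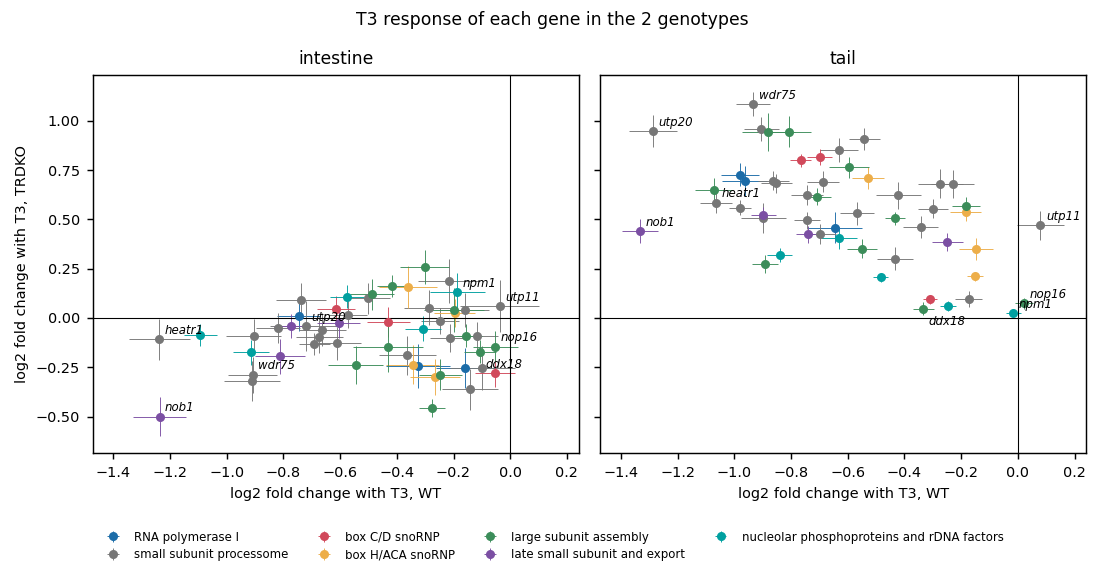
Log2 fold change with T3 in WT (x axis) against that in TRDKO (y axis) for each of the 53 genes, with standard errors, in intestine (left) and tail (right), coloured by role. In the tail 49 genes lie left of the vertical line and above the horizontal one with both changes called, while in the intestine the WT changes run from -1.24 to -0.036 and the TRDKO changes from -0.50 to 0.26, with 12 called in TRDKO.

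In the intestine, T3 lowered ribosome biogenesis transcripts in WT, and in TRDKO most of them were not called. The summed level was 4029.5, 4096 and 4029.5 CPM in WT control, 3380.3, 3322 and 3297 in WT under T3, 3767, 3845 and 3868 in untreated TRDKO and 3510.0, 3485 and 4194 in treated TRDKO. The WT groups and the TRDKO control did not overlap one another. Here too ddx21 weighed on the sum, at 1346, 1384 and 1333 CPM in WT control and 1010, 1051 and 1064 in untreated TRDKO. With ddx21 left out, the summed level of the other members was higher in untreated TRDKO than in WT control, without overlap. A sum leans on abundant genes, and the counts of single genes are given below. The TRDKO T3 libraries straddled the TRDKO control, with replicate 3, the library that stood apart, above it and the other two below it.

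With T3 in WT intestine, 41 genes fell and 0 rose, where 30.3% of all genes fell and 30.3% rose, and the median log2 fold change was -0.42 against 0.011 over all genes. In TRDKO intestine 10 genes fell, 2 rose and 41 were not called, with 20.3% and 20.6% of all genes called in those directions and a median of -0.089. The share of members that fell in TRDKO, 18.9%, was close to that of all genes. Without the library that stood apart it was not, since 22 members (41.5%) fell and 2 rose in TRDKO, against 27.9% and 29.3% of all genes in that fit. In WT 48 fell in that fit, against 35.8% of all genes. Of the 41 genes that fell in WT, 7 fell in TRDKO as well (gnl3, nhp2, nob1, noc3l, rrp9, tcof1 and wdr75), 2 rose there (ebna1bp2 and nop2) and 32 were not called. Such pairs of calls were not counted over all genes. The call of rrp9 in TRDKO was lost when any of 3 libraries was left out. Those of gnl3, nhp2, tcof1 and wdr75 were not followed singly under the alternatives. Without TRDKO T3 replicate 2 only 4 members fell in TRDKO, where 2753 of 15679 genes did. Without TRDKO control replicate 1 it was 5, where 2603 of 15655 genes did, so not all 7 calls held.

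In control intestine, 28 genes were lower and 6 higher in TRDKO than in WT, against 28.7% and 29.1% of all genes, with a median of -0.21. Without the library that stood apart these counts were 34 and 10, against 36.7% and 34.4% of all genes. With upper-quartile scaling they were 19 and 9, against 22.8% and 36.3%. The 4 higher genes with the largest differences were dkc1, described with its role, utp23 at 0.34 ± 0.11, polr1c at 0.29 ± 0.10 and imp3 at 0.21 ± 0.071, and the calls of the last 3 were lost when some single libraries were left out. Under T3, 24 genes were higher and 3 lower in TRDKO (imp4, gnl3 and ddx21, the last with a call lost under 12 alternatives), against 25.1% and 24.3% of all genes, and 26 were higher and 7 lower without that library, against 32.3% and 32.5%. The genotype by T3 interaction was positive and called in 30 genes and negative in 1, noc3l, whose call was lost under 11 alternatives, against 27.2% and 25.1% of all genes, with a median of 0.41, and the counts were 34 and 6 without that library, against 34.7% and 32.4%.

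**Figure D3:**
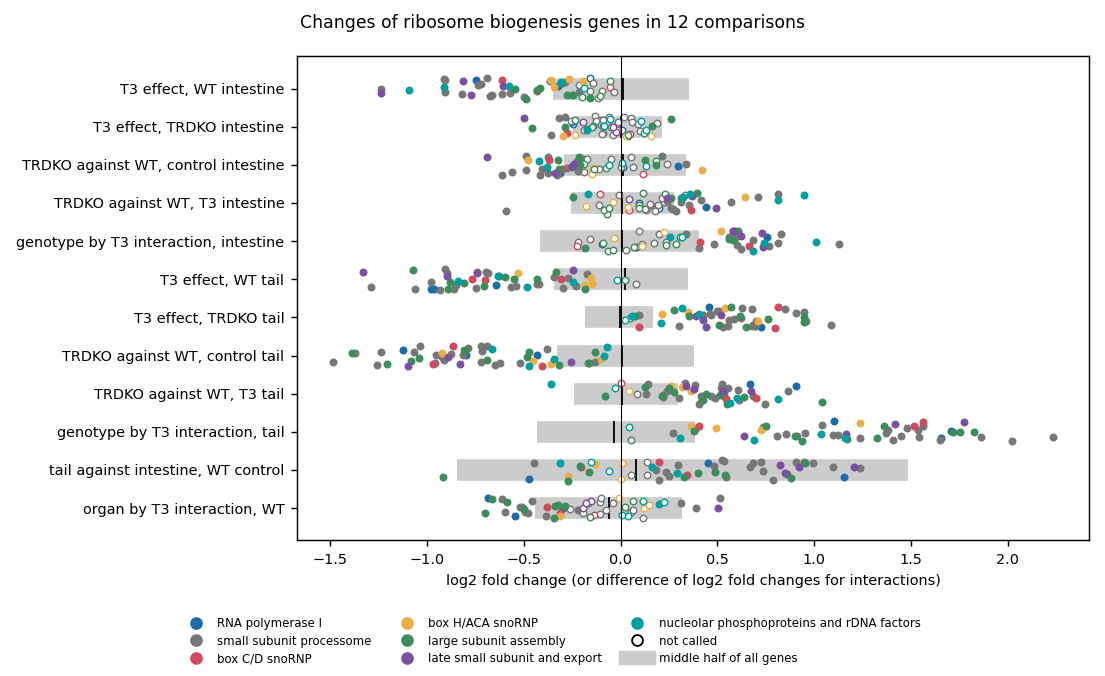
Log2 fold change of each of the 53 genes in the 12 comparisons, coloured by role, with filled points for genes called at an adjusted p under 0.05 and open points for the others. Grey bars span all genes tested from the first to the third quartile and black ticks their median. Left of the bar lie 29 of the 53 points for T3 in WT intestine, 37 for T3 in WT tail and 44 for TRDKO against WT in control tail, and right of it 47 for T3 in TRDKO tail and 47 for the tail interaction. For tail against intestine 1 point lies left of the bar and 0 right of it.

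The RNA polymerase I genes measured here were polr1a and polr1b, its largest subunits, and polr1c, a subunit it shares with RNA polymerase III. In the tail polr1a, on chromosome 1 from 18483372 to 18532999 (plus strand), stood at 23.1, 23.7 and 20.7 CPM in WT control, 11.02, 12.2 and 10.9 in WT under T3, 13.2, 12.3 and 13.2 in untreated TRDKO and 21.6, 20.97 and 21.03 in treated TRDKO. The hormone thus brought the genotypes past each other, since TRDKO was the lower genotype without T3 and the higher with it. The log2 fold change with T3 was -0.98 ± 0.066 (SE, adjusted p = 5.18e-24) in WT and 0.73 ± 0.056 (SE, adjusted p = 4.95e-20) in TRDKO. The gene polr1b changed alike, from 16.01, 14.6 and 15.9 to 8.44, 7.57 and 7.66 CPM in WT and from 6.36, 7.27 and 7.63 to 11.6, 11.2 and 11.3 in TRDKO. In the intestine polr1a stood at 16.96, 17.2 and 15.8 CPM in WT control and 10.01, 10.8 and 9.86 in WT with T3, and at 14.998, 12.9 and 13.4 and 14.1, 14.1 and 13.1 in TRDKO. There it fell in WT on the log2 scale by 0.75 ± 0.076 (SE, adjusted p = 1.57e-06) and was not called in TRDKO (0.0078). All 3 genes of this role fell in WT tail and rose in TRDKO tail, and 2 of 3 fell in WT intestine, where the call of polr1b was lost under 5 alternatives.

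The small subunit processome was the largest group, with 23 genes and a summed level in tail of 641 ± 5.64 CPM (SD, n = 2) in WT control, 405 ± 3.79 (n = 3) in WT with T3, 362 ± 1.94 in TRDKO control and 537 ± 2.72 in treated TRDKO. In WT tail 22 of the 23 fell with T3, and in TRDKO tail all 23 rose. In intestine 17 fell in WT, and 3 fell and 0 rose in TRDKO. Over all genes, 33.5% fell in WT tail, 26.7% rose in TRDKO tail and 30.3% fell in WT intestine. In TRDKO intestine 20.3% of all genes fell and 20.6% rose. The same shares stand beside the counts of the other roles. The largest difference between genotypes in the T3 response of tail was that of utp20, a long scaffold protein, on chromosome 3 from 48737132 to 48806598 (plus strand). It stood at 16.1, 15.1 and 16.2 CPM in WT control tail and 5.91, 6.88 and 6.47 after T3, and at 6.14, 5.58 and 6.46 in untreated TRDKO and 11.9, 12.04 and 10.9 after T3. The WT T3 and TRDKO control libraries overlapped, and both lay under those of TRDKO with T3. The log2 fold change was -1.29 ± 0.083 (SE, adjusted p = 6.20e-25) in WT and 0.95 ± 0.079 (SE, adjusted p = 2.16e-18) in TRDKO, an interaction of 2.24 ± 0.12 (SE, adjusted p = 4.69e-31).

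Proteins of the subcomplex that binds the precursor first, known from yeast and human cells as UtpA, include utp4, utp15, wdr43, wdr75 and heatr1. Of these wdr75, on chromosome 9 from 47864524 to 47908492 (minus strand), had the largest rise in TRDKO tail, from 9.10, 8.69 and 8.97 to 18.1, 19.6 and 18.7 CPM, while in WT tail it fell from 25.2, 24.7 and 25.6 to 12.7, 13.02 and 13.6. No group of the tail overlapped another. The changes were 1.08 ± 0.062 (SE, adjusted p = 8.38e-28) and -0.93 ± 0.060 (SE, adjusted p = 5.72e-25), and TRDKO control was below WT control by 1.49 ± 0.062 (SE, adjusted p = 2.61e-37) on the log2 scale. The gene utp4, on chromosome 4 from 61342981 to 61351270 (minus strand), rose from 9.43, 10.2 and 10.8 to 19.2, 19.5 and 19.96 CPM in TRDKO tail, a log2 fold change of 0.96 ± 0.060 (SE, adjusted p = 2.73e-25), and stood at 23.9, 24.4 and 24.8 in WT control tail and 12.1, 13.3 and 13.4 with T3. The level of wdr43 went from 81.6, 79.3 and 79.7 to 43.1, 39.6 and 38.5 CPM in WT tail and from 32.9, 34.7 and 33.7 to 48.6, 48.4 and 51.4 in TRDKO tail.

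For heatr1, on chromosome 5 from 41407579 to 41459494 (minus strand), the T3 effect in WT did not differ beyond its error between the organs (0.11 ± 0.13). The level went from 36.8, 38.8 and 37.2 to 19.7, 15.8 and 18.2 CPM in tail and from 18.1, 16.8 and 17.97 to 7.34, 7.62 and 8.24 in intestine, log2 fold changes of -1.06 ± 0.056 (SE, adjusted p = 1.37e-30) and -1.24 ± 0.11 (SE, adjusted p = 3.04e-07). In TRDKO it rose in tail, from 19.1, 18.04 and 17.5 to 25.8, 28.4 and 27.4 CPM, and in intestine it stood at 13.2, 14.2 and 13.5 in control and 12.3, 14.8 and 10.3 with T3, with overlapping groups. Its interaction in intestine was the largest among the 53 genes, 1.13 ± 0.15 (SE, adjusted p = 2.78e-05). Next among the processome genes of intestine came the GTPase gene bms1 and the helicase gene ddx10. With T3 in WT intestine bms1 went from 17.8, 16.1 and 15.8 to 9.90, 10.9 and 9.97 CPM and in TRDKO from 12.42, 11.04 and 11.3 to 12.38, 13.4 and 10.8, an interaction of 0.83 ± 0.13 (SE, adjusted p = 9.84e-05). For ddx10 the WT values were 17.1, 14.99 and 15.5 without and 7.84, 10.04 and 8.29 CPM with T3, the TRDKO values 15.3, 16.3 and 17.6 and 14.7, 16.3 and 14.8, and the interaction 0.81 ± 0.13 (SE, adjusted p = 1.71e-04).

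The processome genes wdr3, utp6, mphosph10, utp14a, utp3 and noc4l went with the group in tail. With T3 in WT tail wdr3 fell from 34.3, 32.7 and 34.7 to 19.5, 18.6 and 17.4 CPM, and in TRDKO tail it rose from 17.9, 19.1 and 17.99 to 29.3, 30.03 and 29.3. The changes of utp6, mphosph10, utp14a, utp3 and noc4l in WT tail were -0.74, -0.70, -0.27, -0.30 and -0.23 on the log2 scale, and in TRDKO tail 0.62, 0.43, 0.68, 0.55 and 0.68, all called. In WT intestine 5 of these 6 fell and utp14a was not called, and in TRDKO intestine none of the 6 was called.

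Processome genes did not all follow the group. The gene imp4, whose protein belongs to the MPP10 complex, was lower in TRDKO than in WT under T3 in intestine, at 15.3, 14.02 and 19.7 CPM against 23.9, 27.2 and 22.7, a log2 difference of -0.59 ± 0.10 (SE, adjusted p = 3.36e-04). In the same comparison 11 of the 23 processome genes were higher in TRDKO and imp4 was the one lower. In WT tail utp11 stood at 9.95, 10.8 and 9.01 CPM in control and 10.1, 10.6 and 10.6 with T3 and was not called. By contrast the helicase gene ddx52 went with most called members in control intestine, being lower in TRDKO than in WT. It stood at 14.3, 12.9 and 12.2 CPM against 18.4, 21.1 and 18.9 in WT, lower by 0.61 ± 0.075 (SE, adjusted p = 9.30e-06) on the log2 scale.

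**Figure D4:**
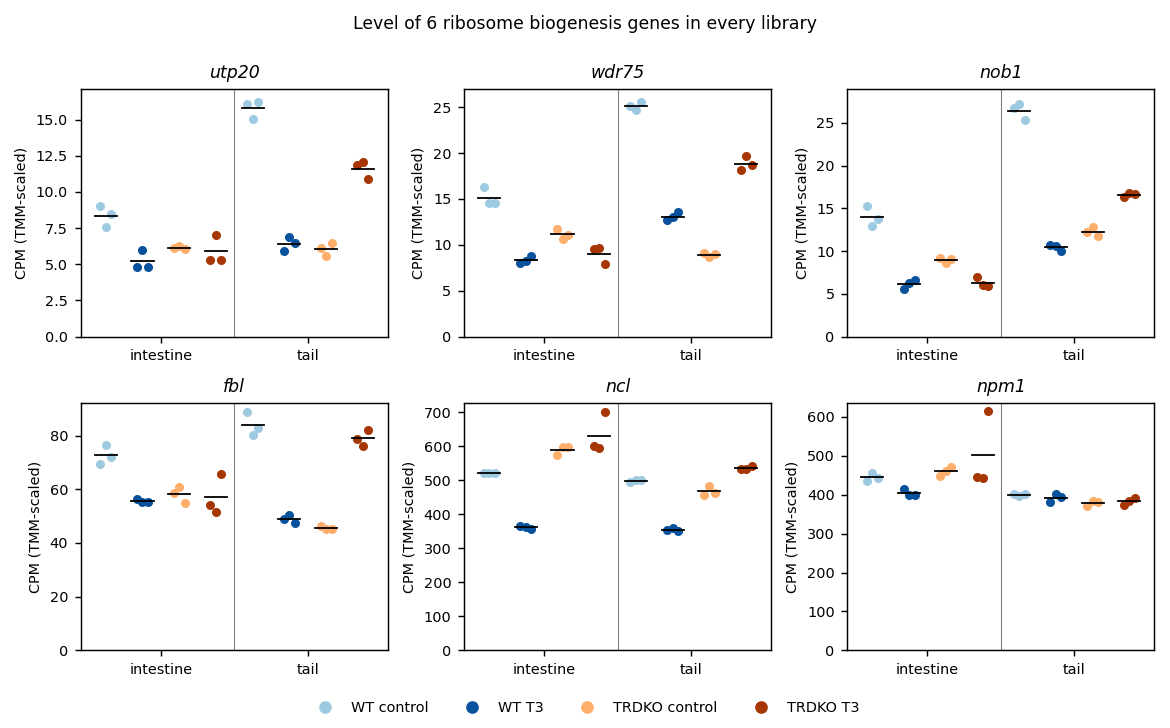
Level in CPM (y axis, from 0) of utp20, wdr75, nob1, fbl, ncl and npm1 in each library (points) and the mean of the 3 libraries (black lines) for the 4 groups of each organ. In the tail utp20, wdr75, nob1 and fbl are highest in WT control, fall with T3 in WT and rise with T3 in TRDKO, while npm1 is nearly level.

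Among the box C/D snoRNP proteins, fbl encodes fibrillarin, the ribose methyltransferase, and nop56 and nop58 its scaffold partners. The level of fbl, on chromosome 7 from 124431761 to 124436585 (plus strand), was 88.7, 80.1 and 82.9 CPM in WT control tail, 48.9, 50.3 and 47.6 in WT under T3, 46.5, 45.1 and 45.2 in untreated TRDKO and 78.8, 76.1 and 81.97 in treated TRDKO. It fell in WT tail by 0.77 ± 0.037 (SE, adjusted p = 3.35e-33) on the log2 scale and rose in TRDKO tail by 0.80 ± 0.033 (SE, adjusted p = 3.73e-37). In intestine it went from 69.6, 76.4 and 72.1 to 56.5, 55.4 and 55.4 CPM in WT, -0.43 ± 0.075 (SE, adjusted p = 2.26e-04), and was not called in TRDKO, at 58.4, 60.7 and 55.04 and 54.2, 51.6 and 65.7. Without the library that stood apart, fbl was called lower there (-0.11, adjusted p = 0.0162 by edgeR). Its partner nop56 had smaller T3 changes in tail. In tail nop56 stood at 241, 244 and 239 CPM in WT control, 198, 193 and 191 in WT under T3, 182, 187 and 176 in untreated TRDKO and 190.1, 195 and 192 in treated TRDKO, and the log2 fold changes were -0.31 ± 0.026 (SE, adjusted p = 6.06e-19) in WT and 0.10 ± 0.023 (SE, adjusted p = 3.25e-04) in TRDKO, the latter with a call lost under 2 alternatives. In WT intestine nop56 was not called, at 271, 288 and 278 and 279, 275 and 279.6 CPM, and it was called lower without the library that stood apart (-0.054, adjusted p = 0.0422 by edgeR). In TRDKO intestine it fell, by 0.28 ± 0.070 (SE, adjusted p = 0.00577), from 311, 318 and 306 to 238, 236 and 294 CPM, and replicate 3 of the T3 group was again apart from the other two.

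The box H/ACA snoRNP genes are dkc1, which encodes the pseudouridine synthase dyskerin, and gar1, nhp2 and nop10. All 4 fell in WT and rose in TRDKO tail with T3, and all 4 fell in WT intestine (dkc1 with a call lost under 5 alternatives), but the median change in WT tail was -0.17, the nearest to 0 of the 7 roles. The dkc1 libraries of the tail lay close together, at 135, 132 and 134 CPM in WT control, 115, 121 and 122 in WT under T3, 122, 124 and 125 in untreated TRDKO and 144, 142 and 140.1 in treated TRDKO. The T3 effect was -0.15 ± 0.028 (SE, adjusted p = 1.29e-06) in WT tail and 0.21 ± 0.024 (SE, adjusted p = 1.50e-12) in TRDKO tail. In intestine dkc1 went against most members, because it was higher in TRDKO than in WT without hormone, at 199, 198 and 208 CPM against 146, 143 and 149.6. That difference was 0.42 ± 0.070 (SE, adjusted p = 1.76e-04), the largest of the 6 genes higher in TRDKO control intestine. With T3 dkc1 stood at 131, 135 and 129.6 CPM in WT and 187, 190.3 and 236 in TRDKO, where replicate 3 was the highest. The T3 effect in TRDKO intestine was not called with that library and was -0.075 without it (adjusted p = 0.00789 by edgeR).

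The large subunit assembly group held 11 genes, among them bop1, pes1 and wdr12, whose proteins form the PeBoW complex needed to process the large subunit rRNAs. With T3, 10 of 11 fell in WT tail, 10 rose in TRDKO tail and 8 fell in WT intestine, where the call of pes1 was lost under 6 alternatives. The bop1 level, on chromosome 6 from 152324719 to 152366895 (plus strand), was 25.9, 25.9 and 25.1 CPM in WT control tail and 11.7, 11.4 and 13.3 with T3, 11.4, 13.3 and 11.5 in untreated TRDKO and 17.6, 19.9 and 18.8 with T3. The WT T3 and TRDKO control libraries covered the same range. Its T3 effects in tail were -1.07 ± 0.066 (SE, adjusted p = 3.05e-26) in WT and 0.65 ± 0.062 (SE, adjusted p = 1.39e-15) in TRDKO. In WT intestine bop1 fell from 13.2, 14.7 and 12.2 to 8.12, 10.3 and 9.81 CPM. Its partner pes1 was higher in intestine than in tail, at 142, 139 and 143 CPM in WT control intestine and 71.7, 78.1 and 72.6 in WT control tail, and with T3 it reached 55.1, 54.8 and 54.8 in WT tail. For T3 in TRDKO intestine bop1 and pes1 were not called, and without the library that stood apart both were called lower, at -0.22 (adjusted p = 0.0247) and -0.16 (adjusted p = 1.41e-06) by edgeR without it. The third partner, wdr12, rose with T3 in TRDKO tail from 6.76, 6.25 and 6.38 to 13.1, 12.6 and 11.4 CPM, 0.95 ± 0.076 (SE, adjusted p = 3.97e-19).

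Another large subunit factor, rrs1, which takes part in recruiting the small rRNA of that subunit in yeast, had a control level in TRDKO tail of 4.28, 5.15 and 4.39 CPM against 13.2, 12.02 and 11.1 in WT, a log2 difference of -1.39 ± 0.10 (SE, adjusted p = 2.73e-23). With T3 rrs1 stood at 9.61, 7.97 and 8.83 CPM in TRDKO and 5.81, 7.97 and 5.84 in WT. The highest TRDKO to WT ratio under T3 in tail belonged to noc2l, at 23.1, 23.9 and 24.7 CPM against 11.9, 12.2 and 11.1, a log2 difference of 1.04 ± 0.061 (SE, adjusted p = 2.29e-27). TRDKO tail with T3 was also above WT control tail for noc2l, where the libraries read 18.3, 16.96 and 18.2. In TRDKO intestine noc3l fell from 41.3, 42.03 and 41.1 to 29.9, 29.04 and 31.2 CPM, -0.46 ± 0.046 (SE, adjusted p = 2.74e-06), and in WT it fell from 37.3, 36.5 and 36.8 to 31.8, 31.6 and 31.1. The 2 rises called in TRDKO intestine were those of ebna1bp2, from 19.98, 20.1 and 20.9 to 21.8, 22.5 and 28.8 CPM, and of the rRNA methyltransferase gene nop2, from 18.8, 19.1 and 18.3 to 21.4, 20.2 and 21.03. They were 0.26 ± 0.085 (SE, adjusted p = 0.0258) and 0.16 ± 0.054 (SE, adjusted p = 0.0263), and for ebna1bp2 replicate 3 of the T3 group was again the highest. Their calls were lost under 2 alternatives for ebna1bp2 and 4 for nop2, DESeq2 among the latter.

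The genes for late steps of the small subunit were ltv1, nob1, rrp12 and tsr1. All 4 fell with T3 in WT tail and WT intestine and rose in TRDKO tail, and their median change was -0.79 in WT intestine, the largest fall among the 7 roles there. The endonuclease gene nob1, whose product makes the mature end of the small subunit rRNA, lies on chromosome 4 from 60928419 to 60938374 (plus strand). It stood at 26.7, 27.2 and 25.3 CPM in WT control tail and 10.7, 10.6 and 10.01 with T3, the largest fall of any member in tail, -1.33 ± 0.063 (SE, adjusted p = 1.21e-33). In TRDKO tail it rose from 12.3, 12.9 and 11.7 to 16.3, 16.8 and 16.7 CPM, 0.44 ± 0.059 (SE, adjusted p = 5.36e-10). In WT intestine it went from 15.2, 12.99 and 13.8 to 5.51, 6.30 and 6.61 CPM, -1.24 ± 0.093 (SE, adjusted p = 7.14e-08). Unlike most members it fell in TRDKO intestine too, from 9.18, 8.64 and 9.02 to 6.93, 6.01 and 5.92, -0.50 ± 0.10 (SE, adjusted p = 0.00105). The fall was nevertheless larger in WT, with an interaction of 0.74 ± 0.14 (SE, adjusted p = 5.01e-04), and TRDKO control was below WT control by 0.69 ± 0.087 (SE, adjusted p = 1.29e-05).

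The last group held abundant nucleolar proteins and factors of ribosomal DNA transcription: ncl (nucleolin), npm1 (nucleophosmin), nolc1, a snoRNP chaperone, tcof1 (treacle) and ddx21. The level of ncl, on chromosome 5 from 100836717 to 100847909 (minus strand), was 496, 501 and 502 CPM in WT control tail, 353, 361 and 352 in WT under T3, 457, 484 and 463 in untreated TRDKO and 533, 533 and 544 in treated TRDKO. In intestine the same groups read 522, 521 and 523, 367, 363 and 357, 575, 598 and 597, and 600.1, 596 and 700.0. In both organs the WT T3 group was the lowest and overlapped no other group. The fall in WT was -0.48 ± 0.026 (SE, adjusted p = 1.86e-29) in tail and -0.58 ± 0.059 (SE, adjusted p = 1.67e-06) in intestine.

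In intestine nolc1 stood at 45.7, 45.99 and 45.7 CPM in WT control, 23.4, 22.2 and 20.9 in WT under T3, 45.04, 43.6 and 47.4 in untreated TRDKO and 40.6, 42.1 and 44.9 in treated TRDKO. The WT T3 libraries lay apart from all others. Its log2 fold change was -1.09 ± 0.057 (SE, adjusted p = 1.41e-09) in WT intestine, it was not called in TRDKO intestine (-0.086; called without the library that stood apart, -0.11, adjusted p = 0.0313 by edgeR), and the interaction was 1.01 ± 0.079 (SE, adjusted p = 1.63e-07). In WT intestine tcof1 fell from 28.2, 28.4 and 26.9 to 14.1, 16.2 and 15.4 CPM, -0.91 ± 0.063 (SE, adjusted p = 2.59e-08). By contrast npm1, on chromosome 3 from 20063551 to 20073882 (plus strand), was nearly level in tail, at 401, 397 and 403 CPM in WT control, 382, 402 and 394 in WT under T3, 370.2, 385 and 381 in untreated TRDKO and 373, 385 and 391 in treated TRDKO. No T3 effect on npm1 was called in either organ or genotype, with log2 fold changes of -0.017 ± 0.026 in WT tail and -0.19 ± 0.10 in WT intestine. Without the library that stood apart, the fall in WT intestine was called at the same size (adjusted p = 3.12e-10 by edgeR). For ddx21, the WT control level of 1658, 1654 and 1646 CPM in tail fell to 1382, 1406 and 1368 with T3, while TRDKO stood at 1010.4, 1061 and 1038 and 1058, 1069 and 1095. It was thus one of only 2 genes, with nop16 (call lost under 4 alternatives), that stayed lower in TRDKO than in WT under T3 in tail, by 0.36 ± 0.026 (SE, adjusted p = 3.58e-22).

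Across the 4 tail groups, the mean of 42 of 53 genes was highest in WT control, and for 33 of them no library of that group overlapped another group. The mean of 38 genes was lowest in TRDKO control, 23 of them without overlap, and of 15 genes in WT with T3. The most common order, in 28 genes, was WT control, TRDKO with T3, WT with T3 and TRDKO control from high to low. In the next, in 11 genes, WT with T3 was the lowest. In intestine 36 genes were highest in WT control and 39 lowest in WT with T3. Such ranks, and the lack of overlap, were not counted over all genes, so these counts describe the members alone. The span from the highest to the lowest group mean ran in tail from 1.05-fold for npm1 to 2.81-fold for wdr75, with a median over the 53 genes of 1.76-fold, and in intestine from 1.11-fold for wdr36 to 2.28-fold for nob1, with a median of 1.37-fold.

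Over the 53 genes, the T3 change in WT intestine and that in WT tail, which share no library, had Pearson's r = 0.56 and Spearman's rho = 0.548. The T3 changes of WT and TRDKO tail had r = -0.534 and rho = -0.507, so genes that fell more in WT tended to rise more in TRDKO. In intestine the same pair had r = 0.122 and rho = 0.037. The T3 change in WT tail went with the level per kb of exon in WT control intestine, with r = 0.589 and rho = 0.584, and with exon length, with r = -0.556 and rho = -0.551, so long and scarce transcripts tended to fall more there. The T3 change in TRDKO tail had r = -0.665 and rho = -0.589 with that level, but only r = 0.272 and rho = 0.249 with exon length. The level is itself divided by exon length, so the relations with level and length are not separate. The part that leaving out duplicate reads has in them was not tested. These correlations are across genes, which are not independent replicates, and they share the libraries of each contrast.

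Between organs in untreated WT, 36 genes were higher and 10 lower in tail than in intestine, against 45% and 39.4% of all genes, and the median log2 difference was 0.34 against 0.080 over all genes. The largest differences were those of nop14, at 47.2, 52.7 and 53.3 CPM in tail and 22.7, 20.2 and 22.3 in intestine, and of rrp12, at 53.05, 52.4 and 53.5 and 22.5, 23.1 and 23.4. They were 1.24 ± 0.071 (SE, adjusted p = 2.15e-15) and 1.204 ± 0.051 (SE, adjusted p = 2.37e-18). Lower in tail were pes1, given above, by 0.92 ± 0.054 (SE, adjusted p = 5.61e-15) on the log2 scale, and polr1c, utp18 and tcof1. The tail and the intestine differ in cell types throughout, and what part of these differences that accounts for was not tested.

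The T3 effect of WT was more negative in tail than in intestine for 23 genes and less negative for 5, against 21.7% and 17.8% of all genes called in those directions. The median interaction was -0.18 against -0.059 over all genes. The nucleostemin gene gnl3 fell in tail from 57.98, 56.7 and 56.2 to 31.5, 29.8 and 30.3 CPM and in intestine from 30.04, 31.8 and 31.1 to 27.4, 27.04 and 26.4, an interaction of -0.70 ± 0.094 (SE, adjusted p = 7.41e-07). The gene polr1b, with 7.57, 6.02 and 7.09 CPM in WT control intestine and 6.40, 5.64 and 5.14 with T3, had an interaction of -0.68 ± 0.14 (SE, adjusted p = 2.53e-04). In the other direction ddx10, whose intestine values are above, stood at 22.9, 21.4 and 22.4 CPM in WT control tail and 17.9, 17.9 and 16.5 with T3, and its interaction was 0.51 ± 0.12 (SE, adjusted p = 0.00159). All 41 genes that fell with T3 in WT intestine also fell in WT tail, 9 fell in tail and were not called in intestine, and nop16, npm1 and utp11 were called in neither. How many of all genes fell in both was not counted.

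Other genes of the pathway, listed by role and not among the 53, mostly moved as the 53 did. Most calls were lower with T3 in both WT organs and higher in TRDKO tail. With T3 in WT tail, 1 rose and 4 fell of 8 further RNA polymerase I genes, 2 and 24 of 33 further small subunit genes, 1 and 32 of 42 further large subunit genes, and 3 and 13 of 22 snoRNP assembly and exosome genes. In TRDKO tail, 6 rose and 0 fell of 8 further RNA polymerase I genes, 30 and 0 of 33 further small subunit genes, 34 and 2 of 42 further large subunit genes, and 22 and 0 of 22 snoRNP assembly and exosome genes. In WT intestine, 0 rose and 6 fell of 8 further RNA polymerase I genes, 0 and 22 of 33 further small subunit genes, 4 and 27 of 42 further large subunit genes, and 1 and 13 of 22 snoRNP assembly and exosome genes. In TRDKO intestine, 2 rose and 3 fell of 8 further RNA polymerase I genes, 1 and 7 of 33 further small subunit genes, 1 and 7 of 42 further large subunit genes, and 3 and 3 of 22 snoRNP assembly and exosome genes. Over all genes, 35.4% rose and 33.5% fell in WT tail, and 26.7% and 26.2% did so in TRDKO tail. In WT intestine 30.3% of all genes rose and 30.3% fell, and in TRDKO intestine 20.6% and 20.3% did. The median log2 fold change of the further small subunit genes was -0.39 in WT tail, 0.50 in TRDKO tail, -0.36 in WT intestine and -0.11 in TRDKO intestine. Among them, tbl3 changed by -1.16 ± 0.080 (SE, adjusted p = 3.59e-23) in WT tail and by 1.16 ± 0.075 (SE, adjusted p = 2.44e-24) in TRDKO tail. The gene rrn3, which encodes the initiation factor of RNA polymerase I, fell by 1.04 ± 0.049 (SE, adjusted p = 4.57e-10) in WT intestine and by 0.76 ± 0.049 (SE, adjusted p = 3.53e-25) in WT tail on the log2 scale. The direction was not that of every processing gene, since exosc8, an exosome subunit, rose in WT tail by 0.77 ± 0.072 (SE, adjusted p = 2.87e-16).

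The transcripts for proteins of the ribosome itself did not follow those for the factors that build it under T3. The summed level of 76 cytosolic ribosomal protein genes in tail was 73384, 71423 and 73249 CPM in WT control, 76777, 76339 and 73373 in WT under T3, 60194, 64832 and 61199 in untreated TRDKO and 58020.0, 58386 and 60711 in treated TRDKO. With T3, 48 of the 76 rose and 0 fell in WT tail, against 35.4% and 33.5% of all genes. Their median log2 fold change was 0.068, against 0.021 over all genes. In TRDKO tail 0 rose and 42 fell, against 26.7% and 26.2% of all genes, with a median of -0.065 against -0.0036. These changes were opposite in sign to those of the 53 genes in both genotypes, and smaller. With upper-quartile scaling the median of all genes became 0.082 in WT tail and -0.047 in TRDKO tail. The 76 genes were not read under that scaling, so the size of such small changes may depend on it. In control tail 75 of the 76 were lower in TRDKO than in WT, against 36.6% of all genes, as the biogenesis genes were. In WT intestine 1 of the 76 fell and 0 rose, although the sum was 71453, 76322 and 70259 CPM in control and 84381, 76695 and 78479 with T3, without overlap. In TRDKO intestine none was called at an adjusted p under 0.05 by edgeR, 8 of 76 having an unadjusted p under 0.05. There replicate 3 of the T3 group summed to 96591 CPM against 70756 and 67495 in the other two. The intestine groups share an estimate of spread that includes this library, and the calls of the 76 genes were not repeated without it.

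**Figure D5:**
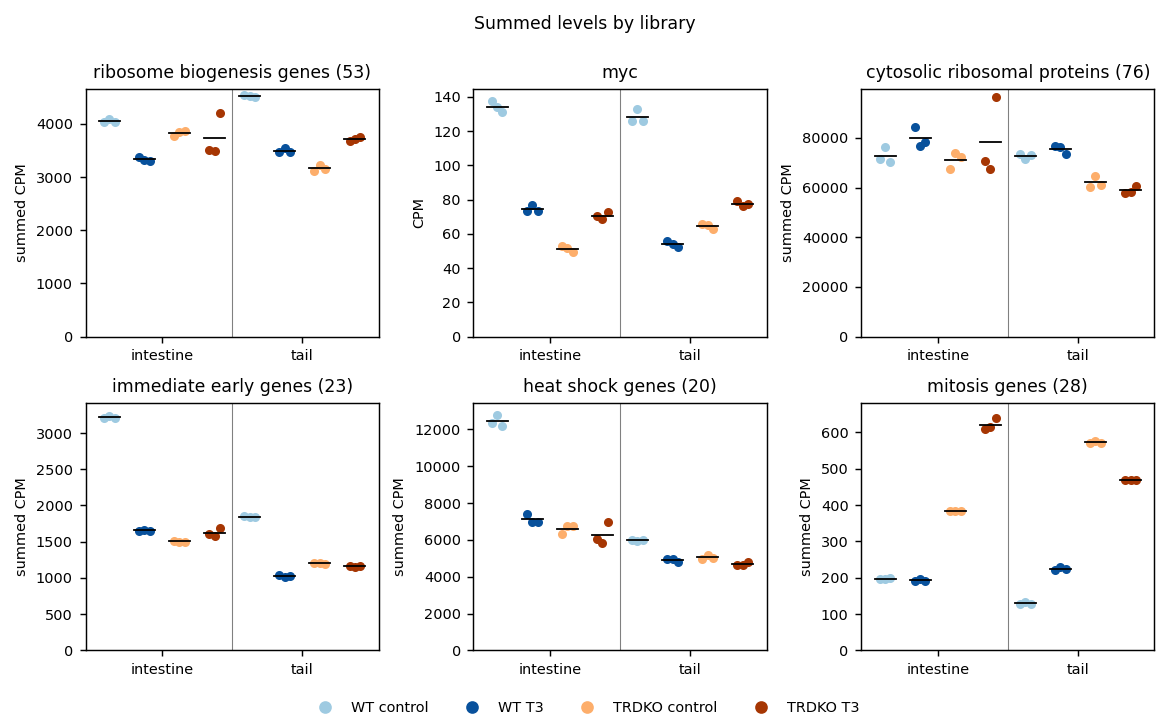
Level in CPM (y axis, from 0) of the 53 ribosome biogenesis genes, myc, the 76 cytosolic ribosomal protein genes and the immediate early, heat shock and mitosis lists, summed over each list in every library (points), with the mean of the 3 libraries (black lines). In the tail the biogenesis sum and myc are both highest in WT control, whereas the mitosis list is lowest there.

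The level of myc, the transcription factor gene named above, moved in the same direction as the members in each T3 contrast of tail. Its CPM in tail was 126, 133 and 126 in WT control, 56.1, 54.1 and 52.5 in WT under T3, 65.9, 65.1 and 62.7 in untreated TRDKO and 79.3, 76.2 and 77.4 in treated TRDKO. It fell in WT by 1.24 ± 0.033 (SE, adjusted p = 8.99e-52) and rose in TRDKO by 0.27 ± 0.030 (SE, adjusted p = 4.77e-13) on the log2 scale. In intestine it was 137, 134 and 131 in WT control, 73.2, 76.8 and 73.5 in WT under T3, 52.8, 51.5 and 49.2 in untreated TRDKO and 70.3, 68.9 and 72.8 in treated TRDKO. There myc was lowest in TRDKO control, whereas the biogenesis sum was lowest in WT with T3. In tail myc was lowest in WT with T3, whereas the biogenesis sum, which leans on ddx21, was lowest in TRDKO control. The orders of the groups thus differed in both organs. With T3 in TRDKO intestine myc was higher, without overlap, while 10 members fell and 2 rose, against 20.3% and 20.6% of all genes. The gene mxd1, which encodes a repressor that competes with MYC for its partner MAX, rose with T3 in WT intestine from 25.1, 26.3 and 25.2 to 192, 193 and 194 CPM and in TRDKO intestine from 39.2, 36.8 and 38.4 to 119.5, 121 and 99.8. In WT tail mxd1 stood at 11.1, 10.4 and 12.2 CPM in control and 28.1, 31.2 and 27.5 with T3. It was also higher with T3 in TRDKO tail, where 51 members rose, at 20.01, 20.04 and 20.5 against 12.2, 11.6 and 12.3 CPM. Whether MYC or MXD1 takes part in the changes of the members was not tested.

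Other gene lists also moved with the groups. Summed over 20 heat shock genes, WT control intestine stood at 12183 to 12784 CPM and the other intestine groups at 5829.8 to 7416, and the 23 immediate early genes, which include myc, at 3205 to 3238 against 1499 to 1685. The WT control tail was also the highest of its organ for both lists, at 5941 to 6005 and 1836 to 1848 CPM, and these are the groups in which most members were highest. The 28 mitosis genes were lowest in WT control tail and highest in TRDKO control tail, with 126 to 132 CPM in WT control, 220.4 to 229.6 in WT under T3, 571 to 578 in untreated TRDKO and 469 to 470.1 in treated TRDKO. Markers of other organs differed between groups as well. The 20 exocrine pancreas genes summed in intestine to 57.2 to 59.5 CPM in WT control with 5 of them at 0, 1512 to 1548 in WT under T3, 8591 to 9158 in untreated TRDKO and 352 to 455 in treated TRDKO. In tail the 15 enterocyte genes summed to 14.6 to 16.1 CPM in WT control and 145 to 149 in TRDKO control, the group in which most members were lowest. The part of these differences in the results for the members was not tested.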

How the data were processed

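Per the labels' protocols, 1 µg of RNA from a column kit went into each stranded total RNA library. The submitters' processing notes name cutadapt 3.2, STAR 2.7.7a and featureCounts of Subread 2.0.1. What the authors deposited are raw counts per gene symbol, made from an XENTR_10.0 annotation and, per the file headers, from reverse-stranded primary read pairs with marked duplicates left out. Without molecular identifiers, leaving out duplicates can lower abundant genes such as ddx21 and npm1, and reads of near-identical genes stay with their primary alignment. Coordinates are those of the deposited table.

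The 53 members were found by exact symbol. The members, the role groups and the other lists were chosen with earlier results of these data known. Counts were filtered with filterByExpr (15491 genes in intestine, 17018 in tail, 17887 in both), scaled by TMM and tested with the robust quasi-likelihood F test of edgeR 4.0.16 in R 4.3.3, with 1 coefficient per group and p-values adjusted over all genes by Benjamini-Hochberg at 0.05. The T3 and genotype contrasts and their interaction were fitted per organ (12 and 11 samples) and the organ contrasts over both (23 samples). Replicates were compared by a chi-square over genes with at least 20 counts, which gave a mean of 1.013 for the 2 summed libraries (p = 0.126). Named are 14 representatives of the roles and, per comparison, up to 4 rises and 4 falls that passed and whose groups do not overlap (overlap not used for interactions). Other members that went against their group were chosen after their values were seen. Also outside this rule were wdr3, utp6, mphosph10 and utp14a, which went with their group in tail. Their changes were not followed singly under the alternatives. The steps were tested on simulated data. Alternatives were other scalings, DESeq2 1.42.0, no filter, a replicate block, the like libraries kept apart, all libraries in 1 fit and leaving out each library. The block with the like libraries kept apart, and printing counts without the library that stood apart, were added after seeing the data. Same-numbered libraries did not deviate together, so numbers were not taken as pairs.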

Additional observations from a re-analysis of the deposited data

Results flagged for a closer look

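Effects that differ between groups by a test of the difference itself (edgeR's quasi-likelihood test of an interaction, adjusted over all genes) were singled out for a closer look. In tail the T3 effect was more positive in TRDKO than in WT for 51 of the 53 ribosome biogenesis genes, against 32.2% of all genes. The largest log2 differences were 2.24 for utp20, 2.02 for wdr75, 1.86 for utp4 and 1.83 for rrs1. In intestine the T3 effect was more positive in TRDKO for 30 genes and more negative for 1, against 27.2% and 25.1% of all genes. The 1 was noc3l at -0.18 (call lost under 11 alternatives). Without the library that stood apart the counts were 34 and 6, against 34.7% and 32.4% of all genes in that fit. The largest differences were 1.13 for heatr1, 1.01 for nolc1, 0.83 for bms1 and 0.81 for ddx10. In WT the T3 effect was more positive in tail than in intestine for 5 genes, against 17.8% of all genes. Among them were ddx10 with 0.51, ltv1 with 0.50, noc4l with 0.39 and utp3 with 0.31 (call lost under 3). The T3 effect was more negative in tail for 23 genes, against 21.7% of all genes, with -0.70 for gnl3, -0.68 for polr1b, -0.66 for wdr12 and -0.61 for utp20.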

How the results depend on the processing

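Most results for the ribosome biogenesis genes kept their direction and their side of the threshold under the alternatives run. Of 3844 values of 209 named results under alternatives, 3692 did so, 108 lost the call, 43 gained it and 1 changed sign. The calls lost under 5 or more alternatives were those of ddx21 (TRDKO against WT under T3, intestine), noc3l (interaction, intestine), dkc1, pes1 and polr1b (T3, WT intestine), polr1a and nolc1 (organ by T3) and dkc1 (organ), and the cause was not tested. The number of members called for T3 in TRDKO intestine, 12, ran from 5 to 24 when 1 library was left out: it was 24 without TRDKO T3 replicate 3, 6 without TRDKO T3 replicate 2 and 5 without TRDKO control replicate 1. The log2 fold change of dkc1 in that contrast was 0.025 and not called, and it ran from -0.075 without TRDKO T3 replicate 3 to 0.087 without TRDKO T3 replicate 2. With upper-quartile scaling the median of all genes moved from -0.034 to -0.14 in the tail interaction and from 0.080 to 0.18 between organs. The share of calls that were higher moved from 50.3% to 61.4% for TRDKO against WT in control intestine and from 50.5% to 39.8% for T3 in TRDKO tail, where 47 members still rose. Same-numbered libraries correlated at -0.031 to 0.028, and a replicate block left 41 members lower for T3 in WT intestine, 9 lower and 2 higher in TRDKO intestine, 50 lower in WT tail and 51 higher in TRDKO tail. The block for tail, which needs the like libraries kept apart, was added after seeing the data, and a block moved no total of members called by over 1.5 times, though the 1 negative intestine interaction, noc3l, was no longer called. The scarcest member values rest on 78 counts (utp20) and 83 counts (polr1b), so small changes of such genes may not be detectable at this depth.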
